A study of Mus musculus with 3 samples.

Results

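The genes described here code for the hnRNPs and for core proteins of the spliceosome, and their RNA was measured in L929 cells, a mouse fibroblast line, by 2 methods. Members were chosen by symbol: every gene of the families Hnrnp, Sf3a and Sf3b, Snrp, Prpf, U2af and Lsm, without those named as pseudogenes. The rule found 71 genes in both methods, of 20716 symbols in the CBTi-seq table and 55295 in the 3' tables. Of these, 20 are hnRNPs, 8 belong to the Sm core ring, 4 are specific to the U1 and U2 particles, 9 are SF3 subunits, 3 are U2AF genes, 5 are PRPF proteins of the tri-snRNP, 8 are other PRPF proteins, 7 are of the LSM ring of U6 and 6 are other LSM proteins. The remaining one, Snrpert, is annotated as a processed pseudogene and stands outside the roles.

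The study set Rrm2-knockdown cells against control cells of the same line. Rrm2 codes for the small subunit of ribonucleotide reductase, the enzyme that makes deoxynucleotides. In CBTi-seq, 10 columns named knock and 10 named control came from 1 sample. In the second method, which reads transcripts at their 3' ends, the knock library and the control library were 1 sample of 8 columns each. The labels do not say how Rrm2 was knocked down, for how long or whether 1 clone was used, and their protocol text, the same for all 3 samples, has single cells drawn into a capillary, primed with oligo dT and amplified. The columns are called cells here after that text. They are not replicates, so no difference below was tested and none has a replicate check.

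The hnRNPs coat nascent transcripts in the nucleus and influence which exons are joined, and how RNA is exported and translated. The spliceosome removes introns. Its U1 particle pairs with the 5' splice site, U2AF marks the 3' splice site, and the U2 particle, with its SF3a and SF3b complexes, takes the branch point. The tri-snRNP of U4, U6 and U5 then joins. A ring of Sm proteins surrounds the U1, U2, U4 and U5 RNAs, and a ring of LSM proteins binds the end of U6. Most of these genes are active in all nucleated cells, fibroblasts included.

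Depth was 153051 to 735871 counts per CBTi-seq knock cell and 41570 to 846819 per CBTi-seq control cell. It was 814960 to 1973137 per column of the 3' library labelled knock and 399393 to 2496457 per column of the one labelled control. Levels are CPM (counts scaled to a total of 1000000) of the counts summed over a group, and are not corrected for transcript length, so they are compared between groups and never between genes. A limit of 3 counts was 0.855 and 0.777 CPM in the CBTi-seq knock and control cells, and 0.327 and 0.424 CPM in the 3' libraries labelled knock and control. The targeted gene went with the labels in CBTi-seq and against them in the 3' tables. Rrm2 was at 350.1 CPM in CBTi-seq knock cells against 480.9 CPM in control cells (log2 ratio -0.46, -0.56 to -0.35). It was at 148.1 CPM in the 3' library labelled knock against 39.1 CPM in the one labelled control, a log2 ratio of 1.92 (1.74 to 2.12). The 3' libraries are therefore called by their labels throughout, and with 1 library a label no 3' result can be given without them. Intervals in brackets are 95% intervals for counting error only. They leave out the spread between cells, and PCR reads without identifiers are not independent molecules.

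Of 12 fibroblast markers, 9 had a row in CBTi-seq and summed to 1595 to 2705 CPM over knock cells and 1627 to 2885 CPM over control cells, Vim at 1071 and 976.2 CPM among them. Of the 7 at a mean of 20 CPM or more in CBTi-seq, 2 were higher in knock cells and 5 lower, 1 of them at least 2-fold. Their median log2 ratio was -0.14. The 12 markers summed to 1629 to 1821 CPM over columns of the 3' library labelled knock and 721.1 to 883.7 CPM over those of the one labelled control. Only 3 of the 12 reached 20 CPM there, all 3 higher under the label knock and 2 of them at least 2-fold. Thy1, Lum and Dcn had no row in CBTi-seq. Thy1 was at 0.546 and 1.70 CPM in the 3' libraries labelled knock and control, and Lum at 0.437 and 0.707 CPM. Of 6 leukocyte markers, 4 had no 3' count, Ptprc among them, and Cd68 made up most of a summed level of 131.1 to 179.1 CPM against 65.5 to 115.2 CPM over the columns of the libraries labelled knock and control. Of 6 epithelial markers, 3 keratin genes had no 3' count. Cdh1 made up most of a summed level of 90.7 to 174.1 against 139.0 to 251.6 CPM. In CBTi-seq, the epithelial list summed to 0 to 5.05 CPM in knock cells and 0 to 6.18 CPM in control cells, and Cd68, the leukocyte marker with a row, had 2.66 to 34.6 and 0 to 162.9 CPM. The 4 endothelial markers had no CBTi-seq row and summed to 18.4 to 47.9 against 21.8 to 43.8 CPM over 3' columns.

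In CBTi-seq, the splicing genes stood at much the same level in knock and control cells. All 71 had counts in both groups, and 69 reached a mean of 20 CPM. Of these, 40 were higher in the knock cells and 29 lower, so 58.0% were higher, where 44.7% of all 8391 genes at that level were. The median log2 ratio was 0.08, against -0.05 for all genes. The ratios ran from -0.63 for Hnrnph2 to 0.45 for Lsm11. Of 63 members with a mean of 50 CPM or more, 0 lay 2-fold apart or farther, where 1.01% of all genes did. No member had all its knock cells above or below all its control cells. Over all genes at 20 CPM or more, 0.0596% had every knock cell higher and 0.0715% every one lower. Summed over the 71 genes, the cells held 13525 to 15891 CPM in the knock group, with a median of 14676, and 10151 to 15982 CPM in the control group, with a median of 14142. The groups overlapped, and the log2 ratio of the summed counts was 0.09 (0.07 to 0.10).

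In the 3' libraries, most of the splicing genes stood higher under the label knock, as did most genes in all. A mean of 20 CPM was reached by 47 members. Of these, 35 stood higher under the label knock and 12 lower, so 74.5% were higher, where 58.8% of all 5701 genes at that level were. The median log2 ratio was 0.27, against 0.18 for all genes. Of the 37 members that reached 50 CPM, the library labelled knock had 5 at least 2-fold higher and 1 at least 2-fold lower. Of all 2826 genes at that level, 13.3% were at least 2-fold higher and 4.53% at least 2-fold lower. With TMM or median-of-ratios factors, 2 of 38 members were at least 2-fold higher and 2 lower, beside 9.55% and 7.29% of all genes under TMM. The count changed since Hnrnpm, U2af1 and Hnrnph1 lay just under 2-fold at TMM log2 ratios of 0.98, 0.95 and 0.93 while Lsm5 passed at -1.11. With totals that left out mitochondrial and ribosomal protein genes 3 of 40 were higher and 2 lower, beside 10.97% and 7.09% of all genes. The TMM and median-of-ratios factors took the median of all genes to 0.02 and 0.01, so 3' ratios are to be read beside 0.18. Of the 47 members, 10 had every column of the library labelled knock above every column of the one labelled control, and 3 below. These shares stand beside 21.2% and 8.02% of all genes. Summed over the 71 genes, the columns held 7887 to 8335 CPM in the library labelled knock, with a median of 8152, and 6287 to 6773 CPM in the one labelled control, with a median of 6466. These sums did not overlap, and the log2 ratio of the summed counts was 0.32 (0.31 to 0.34). Of the 9 role groups, 6 had sums with no overlap, all higher under the label knock. Those of the SF3 complex, the tri-snRNP PRPF proteins and the other LSM proteins overlapped. No share over sums of other gene sets was computed, and most genes stood higher under that label. Sums without overlap are therefore not read as a trait of the members or of their roles.

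**Figure D1:**
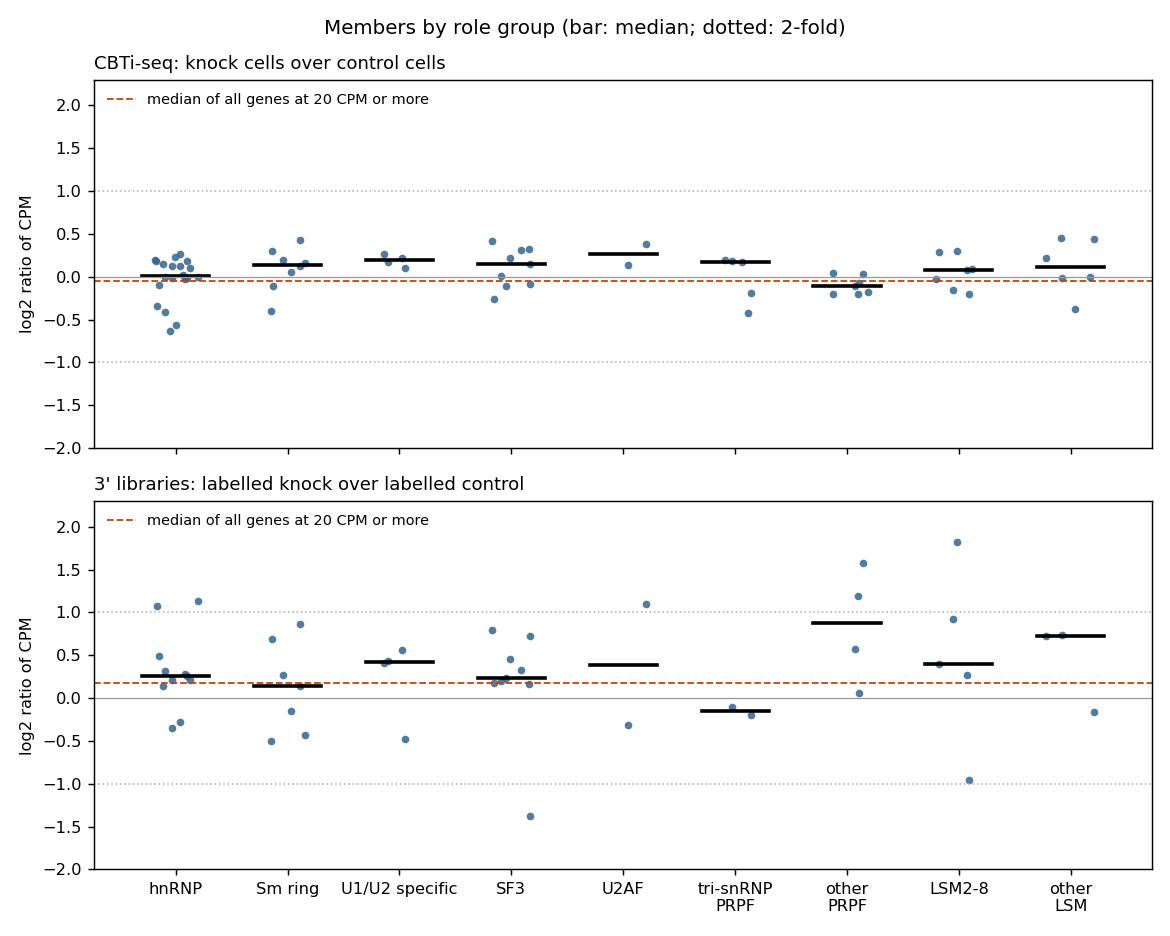
Log2 ratios of CPM, knock over control, for members with a mean of 20 CPM or more. The top panel is CBTi-seq (the 69 genes without Snrpert, which has no role). The bottom panel is the 3' libraries by their labels (47 genes). Points are genes, bars are medians of a role group, the dashed line is the median of all genes at that level and dotted lines mark 2-fold. All CBTi-seq points lie between the dotted lines, and 6 genes at 50 CPM or more lie beyond them in the 3' libraries, with Prpf38b, below that level, as a seventh point.

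The 3' libraries also differed as a whole. Ribosomal protein genes held a median of 15.98% of counts per column of the library labelled knock against 23.99% of the one labelled control, and in CBTi-seq 6.75% against 6.84%. Genes of cycling cells, 12 of 12 higher under the label knock with a median log2 ratio of 1.49, summed to 1050 to 1228 CPM against 340.9 to 438.1 CPM over the columns. In CBTi-seq, 9 of the 12 were higher in knock cells, with a median of 0.12 and sums of 1747 to 3316 CPM against 879.7 to 3242 CPM. The part of these and of the markers above in the 3' ratios of the splicing genes was not tested.

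Of the 47 members at 20 CPM or more in both methods, 21 were higher under the label knock in both. Another 4 were lower in both, namely Hnrnpc, Lsm5, Prpf4 and Snrpn. There were 8 higher in CBTi-seq knock cells and lower in the 3' library labelled knock, and 14 the other way. Across these 47 genes, which share the 4 groups of columns and are not independent, Pearson's r was 0.12 and Spearman's rho 0.11. Over all 4602 such genes they were 0.06 and 0.03. These counts and signs rest on the 3' labels, which Rrm2 goes against. With the 3' ratios turned round, 8 members would be higher in both methods and 14 lower in both, with r at -0.12 and rho at -0.11.

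Among the hnRNPs, the 2 directions were even in CBTi-seq, with 10 of 20 higher and a median log2 ratio of 0.01. This median was below 0 when any 1 of 5 cells was left out (knock cells 3 and 10 and control cells 4, 9 and 10) and under a correction for identifier collisions. The 2 lowest ratios were those of Hnrnph2 and Hnrnph3, of the hnRNP H family, whose proteins bind runs of G. Hnrnph1 had 151.6 to 248.7 CPM in knock cells, with a median of 205.4, and 144.3 to 389.5 CPM in control cells, with a median of 262.9 (log2 ratio -0.34, -0.48 to -0.20). Hnrnph3 was at 31.9 and 47.4 CPM in knock and control cells (-0.57, -0.92 to -0.22). Hnrnph2 was at 25.1 and 38.8 CPM (-0.63, -1.03 to -0.24). The cells of all 3 genes overlapped between the groups. Both lower genes rested on few counts per cell. With each cell weighing the same, their log2 ratios were -0.17 for Hnrnph2 and -0.28 for Hnrnph3, and without control cell 9 they were -0.40 and -0.41. Hnrnph3 was at -1.09 with cells thinned to 50000 counts. Thinning, here and below, was a single random draw that discarded most counts, so its values carry added counting error.

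Other hnRNPs lay on both sides of their control level. Hnrnpul2, a relative of the scaffold protein hnRNP U, was at 71.6 CPM in knock cells against 95.03 CPM in control cells (log2 ratio -0.41, -0.65 to -0.17). Thinned in this way, its ratio was 0.37. Hnrnpa3 stood highest by ratio among the CBTi-seq hnRNPs, with 433.9 to 644.0 CPM in knock cells against 168.4 to 710.8 CPM in control cells (0.26, 0.17 to 0.35). Hnrnpa2b1, a binder of nascent and transported RNA, had 629.2 to 1268 CPM in knock cells (median 928.6) against 608.2 to 2045 CPM in control cells (median 890.3). Its log2 ratio was 0.10 (0.03 to 0.17), with the groups overlapping. No gene exceeded 638 counts in a knock cell or 623 in a control cell, so CPM of high genes may be held down in deep cells. The part of this in the range of Hnrnpa2b1 was not tested. By the 3' method Hnrnpa2b1 was at 446.2 and 385.2 CPM in the libraries labelled knock and control (0.21, 0.14 to 0.28).

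The 3' libraries had 11 hnRNPs at 20 CPM or more, of which 9 stood higher under the label knock. The median over the 11 was 0.26. Hnrnpm had 157.9 to 260.0 CPM in columns of the library labelled knock, with a median of 198.5, against 45.1 to 120.8 CPM in the one labelled control, with a median of 90.7. The columns did not overlap, and the log2 ratio was 1.14 (1.01 to 1.27). In CBTi-seq the same gene was at 254.6 CPM in knock cells and 256.1 CPM in control cells (-0.01, -0.14 to 0.12). Hnrnph1 was higher in the library labelled knock too, with 67.3 to 89.6 against 18.9 to 49.4 CPM (1.08, 0.87 to 1.29), opposite in sign to its CBTi-seq ratio. Hnrnpc, which binds U-rich tracts, was lower, with 156.8 to 217.0 CPM in columns of the library labelled knock against 220.2 to 274.2 CPM in those of the one labelled control. Its log2 ratio was -0.35 (-0.45 to -0.26). In the single random draw of columns thinned to 50000 counts it was 0.03.

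The proteins of the Sm core ring, shared by the U1, U2, U4 and U5 particles, were higher in CBTi-seq knock cells for 6 of 8 genes, by a median of 0.14. Snrpd2 led, with 241.9 to 358.2 CPM in knock cells (median 265.9) against 96.2 to 273.5 CPM in control cells (median 197.3). The groups overlapped, and the log2 ratio was 0.42 (0.29 to 0.56). Snrpd1 was at 258.9 and 209.5 CPM in knock and control cells (0.31, 0.17 to 0.44), and Snrpb, the gene of SmB, at 527.8 and 459.9 CPM (0.20, 0.10 to 0.29). Snrpn, the imprinted gene of SmN, was lower at 24.8 against 32.6 CPM (-0.40, -0.81 to 0.01). Its ratio was -0.08 without control cell 9 and 0.21 with cells thinned to equal counts.

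The ring divided in the 3' libraries. Of 7 genes at 20 CPM or more, 4 stood higher under the label knock and 3 lower. The median log2 ratio was 0.14, and it was -0.02 under both TMM and median-of-ratios factors and -0.09 after thinning. Snrpd2 had 644.1 to 790.1 CPM in columns of the library labelled knock (median 688.0) against 325.5 to 459.2 CPM in those of the one labelled control (median 380.9). The columns did not overlap, and the log2 ratio was 0.87 (0.80 to 0.93). Snrpd1 had 219.3 to 271.5 against 127.4 to 215.3 CPM (0.69, 0.59 to 0.80). Snrpg ran the other way, with 379.6 to 469.8 CPM in the library labelled knock against 559.4 to 701.7 CPM in the one labelled control (-0.43, -0.49 to -0.37). Snrpn was at 104.7 and 148.1 CPM (-0.50, -0.63 to -0.37), and its columns overlapped.

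Snrpe, the gene of SmE, has a near-identical copy in the processed pseudogene Snrpert, and the deposited tables count the 2 loci separately. In CBTi-seq, Snrpe was at 311.9 and 299.9 CPM in knock and control cells (log2 ratio 0.06, -0.06 to 0.18), and Snrpert at 63.0 and 65.5 CPM (-0.06, -0.32 to 0.21). Snrpe was at 382.2 and 423.5 CPM in the 3' libraries labelled knock and control (-0.15, -0.22 to -0.08), while Snrpert had no count. A count of either gene can belong to the other, so both values are uncertain.

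The 4 genes specific to the U1 and U2 particles were all higher in CBTi-seq knock cells, by log2 ratios of 0.11 to 0.26. Snrpc, a U1 protein at the 5' splice site, was highest in ratio, at 187.9 and 156.9 CPM in knock and control cells (0.26, 0.10 to 0.42). Snrpa1, a U2 protein, had 292 to 456 CPM in knock cells (median 347.7) against 220.3 to 459.4 CPM in control cells (median 323.9), with the groups overlapping (0.22, 0.10 to 0.33). In columns of the 3' libraries labelled knock and control it had 753.0 to 987.3 and 536.0 to 786.2 CPM (0.56, 0.51 to 0.62). Snrpb2, which binds U2 RNA together with the protein of Snrpa1, was lower there at 69.5 against 96.5 CPM (-0.47, -0.63 to -0.32).

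SF3 subunits, which hold the branch point in the U2 particle, were higher in CBTi-seq knock cells for 6 of 9 genes, by a median of 0.14. Sf3a2 had 80.7 to 287.5 CPM in knock cells (median 237.7) against 24.1 to 266.2 CPM in control cells (median 175.0). The cells overlapped widely, and the log2 ratio was 0.42 (0.27 to 0.57). Sf3a3 was at 152.3 and 122.0 CPM in knock and control cells (0.32, 0.14 to 0.50). Sf3a2 was at 0.67 after thinning, and Sf3a3 at 0.20 without knock cell 10. Sf3b3 was lower at 163.4 against 195.5 CPM (-0.26, -0.42 to -0.10). Sf3b1, the scaffold around the branch helix, had 247.2 to 385.1 CPM in knock cells against 168.4 to 431.2 CPM in control cells (-0.11, -0.22 to 0.01).

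By the 3' method 8 of the 9 SF3 genes stood higher under the label knock, and the median over the 9 was 0.23. Sf3b4 was at 362.7 and 288.5 CPM in the libraries labelled knock and control (0.33, 0.25 to 0.41). The exception was Sf3b6, the small subunit that touches the branch point. It had 60.2 to 76.3 CPM in columns of the library labelled knock (median 64.6) against 119.1 to 195.5 CPM in those of the one labelled control (median 164.4). The columns did not overlap, and the log2 ratio was -1.38 (-1.52 to -1.23). In CBTi-seq Sf3b6 was at 236.1 and 213.6 CPM in knock and control cells, a log2 ratio of 0.14 (0.00 to 0.29).

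U2af1, the subunit that reads the AG of the 3' splice site, was higher under the label knock in both methods, where the 3' label is the one that Rrm2 goes against. It had 274.4 to 440.5 CPM in CBTi-seq knock cells (median 335) against 137.6 to 348.2 CPM in control cells (median 261.9). These groups overlapped (log2 ratio 0.38, 0.27 to 0.50). By the 3' method it had 134.5 to 195.1 CPM in the library labelled knock (median 175.2) against 67.4 to 107.6 CPM in the one labelled control (median 78.6), with no overlap (1.10, 0.96 to 1.24). U2af1 has 3 near-identical stretches elsewhere in the genome, so its counts are uncertain. U2af2, the subunit on the pyrimidine tract, was at 176.2 and 160.3 CPM in CBTi-seq knock and control cells (0.14, -0.03 to 0.30). It was at 22.6 and 28.2 CPM in the 3' libraries labelled knock and control (-0.32, -0.61 to -0.03).

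PRPF proteins of the tri-snRNP were split in CBTi-seq, with 3 of 5 higher in knock cells. Prpf8, which lines the catalytic centre, had 56.2 to 125.5 CPM in knock cells (median 85.7) against 48.1 to 147.6 CPM in control cells (median 114.4). The groups overlapped, and the log2 ratio was -0.42 (-0.63 to -0.22). Prpf3, a protein of U4/U6, was at 128.9 and 114.7 CPM in knock and control cells (0.17, -0.02 to 0.36). At the 3' end, Prpf4 and Prpf6 alone of the 5 reached 20 CPM. Prpf6, which bridges U5 with U4/U6, was at 41.6 and 44.7 CPM in the libraries labelled knock and control (-0.10, -0.32 to 0.11).

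The other PRPF proteins were mostly lower in CBTi-seq knock cells, 5 of 7, by a median of -0.11 over the 7. The median was 0.13 after thinning. All 4 that reached 20 CPM in the 3' libraries stood higher under the label knock. Prpf4b, a kinase of the tri-snRNP, had 82.2 to 123.4 CPM in its columns (median 100.7) against 26.5 to 51.1 CPM in those of the library labelled control (median 33.6). The columns did not overlap (1.58, 1.38 to 1.79). Prpf38b was at 45.5 against 20.0 CPM (1.19, 0.91 to 1.48), also without overlap. In CBTi-seq, Prpf4b was at 120.9 and 118.6 CPM in knock and control cells (0.03, -0.17 to 0.22), and Prpf38b at 163.1 and 187.7 CPM (-0.20, -0.36 to -0.04).

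**Figure D2:**
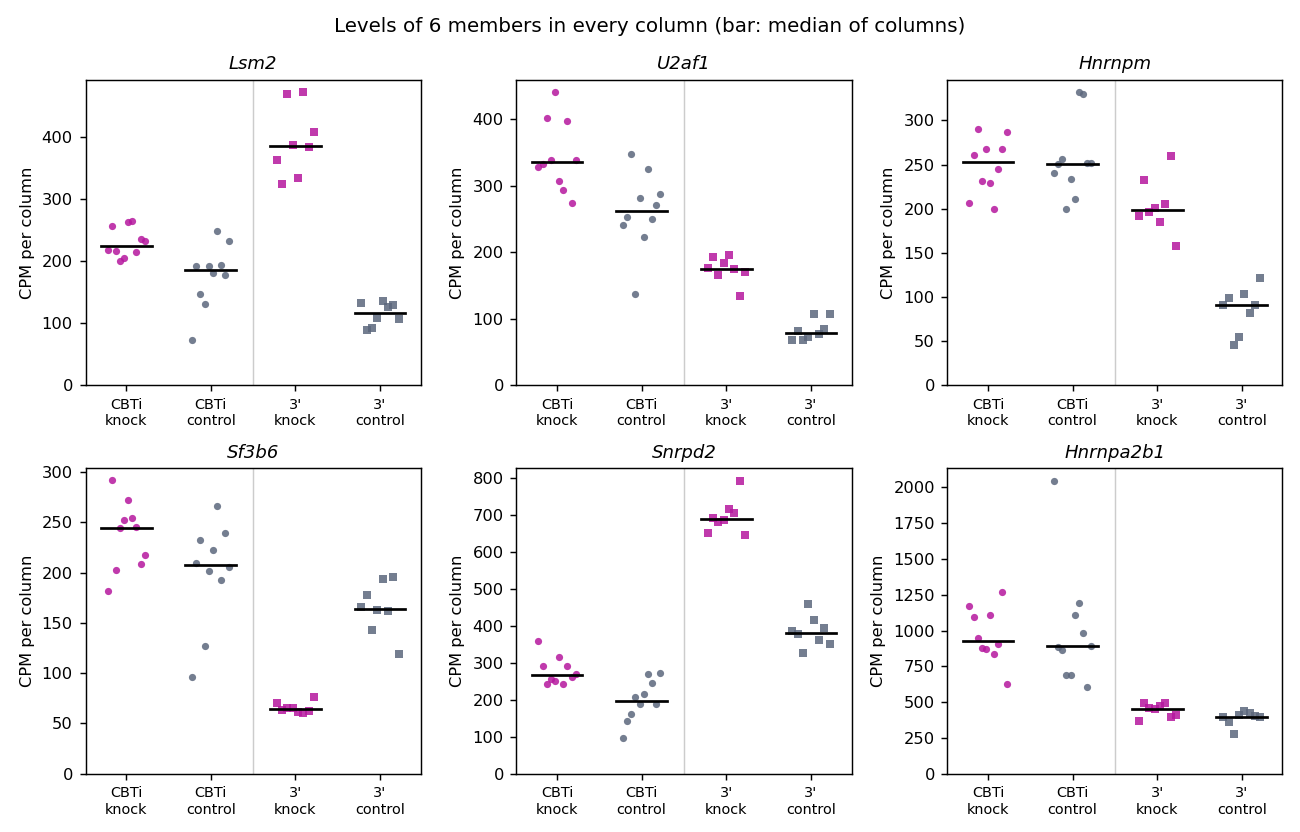
CPM in every column for 6 members, with CBTi-seq cells as circles and columns of the 3' libraries as squares, knock left of control in each method. Bars are medians of columns. CBTi-seq groups overlap for all 6 genes, while in the 3' libraries the columns of Lsm2, U2af1, Hnrnpm and Snrpd2 lie higher under the label knock, those of Sf3b6 lie lower and those of Hnrnpa2b1 overlap.

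The LSM ring of U6 summed to 774.9 to 954.8 CPM in columns of the 3' library labelled knock (median 829.3) against 398.7 to 525.8 CPM in those of the one labelled control (median 476.0). The sums did not overlap, and the log2 ratio was 0.86 (0.80 to 0.92). Much of it was Lsm2, with 323.9 to 472.2 CPM (median 385.4) against 88.9 to 135.6 CPM (median 116.6), a log2 ratio of 1.83 (1.71 to 1.94). Lsm6 was at 133.9 and 70.7 CPM in the libraries labelled knock and control (0.92, 0.77 to 1.07), while Lsm5 was at 33.6 and 65.2 CPM (-0.96, -1.17 to -0.75). Lsm5 and Lsm6 have near-identical stretches elsewhere, 2 and 3 of them, and their counts are uncertain. In CBTi-seq the summed ring had 938.4 to 1102 CPM in knock cells (median 976.6) and 336.8 to 1079 CPM in control cells (median 980.3). Lsm2 there had 200.6 to 264.4 CPM in knock cells (median 224.7) against 72.2 to 248.0 CPM in control cells (median 186), with overlap (0.30, 0.15 to 0.45). Lsm4 was at 207.0 and 210.0 CPM (-0.02, -0.17 to 0.13).

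**Figure D3:**
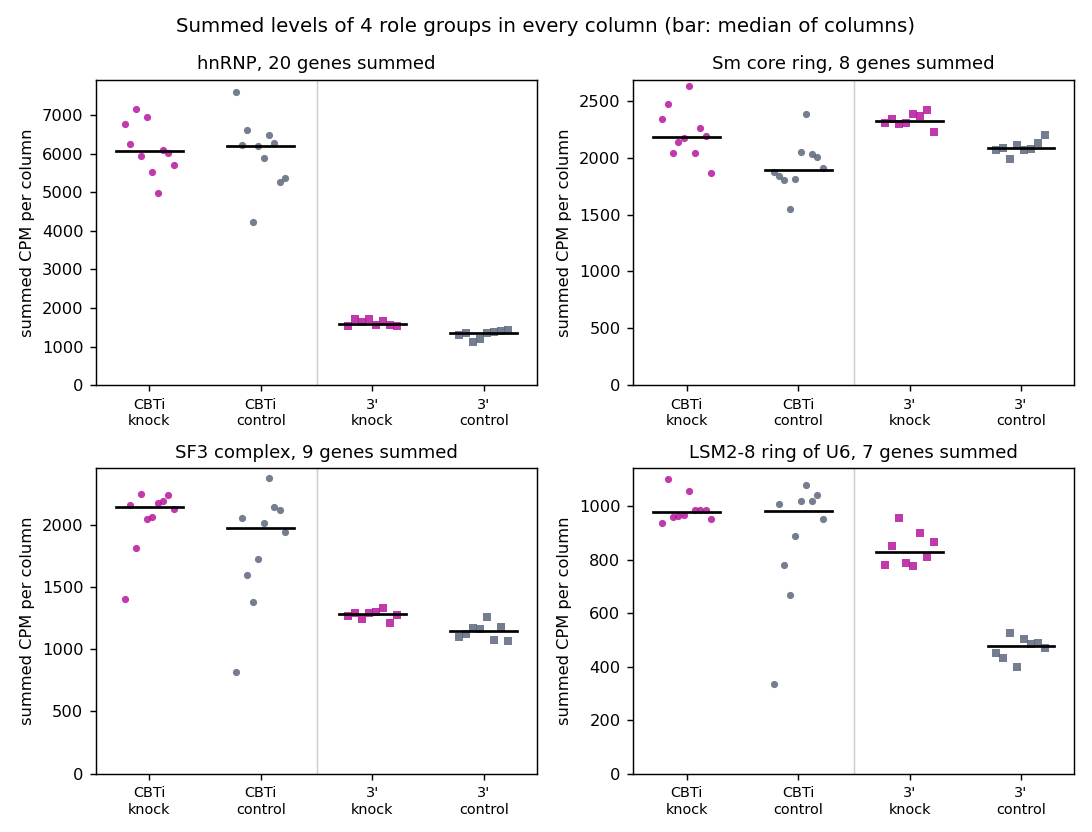
Summed CPM of 4 role groups in every column, with CBTi-seq cells as circles and columns of the 3' libraries as squares, knock left of control in each method, and bars for medians. In the 3' libraries the LSM ring of U6 stands at 774.9 to 954.8 CPM under the label knock and 398.7 to 525.8 CPM under the label control, while its CBTi-seq cells overlap.

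Other LSM proteins gave the 2 highest CBTi-seq ratios, both from low counts. Lsm11 and Lsm10 are parts of the U7 particle, which cuts the ends of histone transcripts. Lsm11 had 5.05 to 71.3 CPM in knock cells (median 51.0) against 0 to 75.8 CPM in control cells (median 38.9), a log2 ratio of 0.45 (0.12 to 0.79). Lsm10 had 31.0 to 61.3 against 15.5 to 46.1 CPM (0.44, 0.08 to 0.81). Without control cell 3, Lsm11 was at 0.25, and without control cell 9, Lsm10 was at 0.67. With cells thinned to 50000 counts, which leaves out control cell 1, they were at 1.32 and 1.12. Lsm14b, of the P-body family, was at 53.3 and 69.4 CPM in knock and control cells (-0.38, -0.66 to -0.11). Without control cell 5 its ratio was 0.16, so the direction rested on that cell. Lsm12 was at 211.0 and 213.4 CPM (-0.02, -0.16 to 0.13). Lsm10 was at 67.0 and 74.9 CPM in the 3' libraries labelled knock and control (-0.16, -0.33 to 0.01). Lsm1, which takes the place of Lsm8 in the ring for mRNA decay, was at 41.0 and 24.9 CPM (0.72, 0.46 to 0.99).

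Some members had few 3' counts. Hnrnph3 had 58 counts in the library labelled knock and 2 in the one labelled control, a log2 ratio of 4.48 with a counting interval of 2.57 to 7.56. Hnrnpul2 and Lsm14b had 34 and 22 counts in the library labelled knock and 0 in the one labelled control. Against a limit of 3 counts in that library they were at least 8.74-fold and at least 5.66-fold higher. These bounds leave out counting error in the 34 and 22 counts. Prpf40b had 9 counts in the library labelled knock against 48 in the one labelled control (-2.79, -4.003 to -1.75).

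Lsm2 and Sf3b6, which had the largest 3' ratio in each direction among the members at 20 CPM or more, are shown by their promoter windows, from RefSeq on GRCm38.p6, as the sequence around the starts of genes that differed most. Of the 71 members, 58 had a window in that table. The windows are chr17:34981604-34981903 for Lsm2, the first of its 2, and chr12:4817358-4817657 for Sf3b6, both on the plus strand. Capitals mark matches on either strand to 5 short motifs. They are the box written CCAAT, the core of ETS sites written as CCGGAAG, the GC box written as GGGCGG, the box of the TATA type written as TATAAA and the E-box written as CACGTG.
Lsm2: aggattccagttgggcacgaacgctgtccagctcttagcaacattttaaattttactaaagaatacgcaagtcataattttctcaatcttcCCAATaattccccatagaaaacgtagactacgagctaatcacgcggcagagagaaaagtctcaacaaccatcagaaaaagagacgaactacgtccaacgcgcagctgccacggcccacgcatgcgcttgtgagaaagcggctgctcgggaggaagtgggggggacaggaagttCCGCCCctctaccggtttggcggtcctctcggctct
Sf3b6: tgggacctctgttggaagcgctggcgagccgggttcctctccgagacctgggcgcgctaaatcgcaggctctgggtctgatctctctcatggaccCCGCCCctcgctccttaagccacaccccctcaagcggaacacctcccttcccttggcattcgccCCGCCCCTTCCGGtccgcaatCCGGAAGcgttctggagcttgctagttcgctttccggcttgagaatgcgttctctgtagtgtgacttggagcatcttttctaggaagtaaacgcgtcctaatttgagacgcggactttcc
The Lsm2 window held 1 CCAAT and 1 GC box, and the Sf3b6 window 2 ETS cores and 2 GC boxes, one of which adjoins an ETS core. Over the 78 windows of the members, 25.6% held CCGGAAG, against 8.86% of 32851 windows of all genes. GGGCGG stood in 62.8% against 35.7%, CCAAT in 50.0% against 37.4%, CACGTG in 14.1% against 7.15% and TATAAA in 6.41% against 13.6%. The windows of all genes were taken at any RNA level, and no share was computed over genes at the members' levels. Whether these shares are particular to the members was thus not tested. The second Lsm2 window, not shown, held 3 GC boxes and 0 of the other motifs. A match of letters is a description and no sign that a factor was bound.

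The spread of the splicing genes between cells is set here beside that of all genes. With counting error taken off, the coefficient of variation had a median of 12.7% among members that reached 50 CPM over CBTi-seq knock cells and 28.5% over control cells. For all genes at that level it was 20.2% and 35.1%. Without control cell 1, the shallowest, the control values were 20.2% for members and 26.2% for all genes. Members had 8.20% and 12.1% in the 3' libraries labelled knock and control, against 9.92% and 12.2% for all genes. The summed members varied by 4.83% over CBTi-seq knock cells and 10.8% over control cells. Among single genes, Hnrnpa0 varied widely, with 103.7 to 662.9 CPM over knock cells and 126.7 to 468.2 CPM over control cells, and Hnrnpu varied little, with 412.8 to 681.1 CPM and 387.4 to 645.5 CPM. These 2 were chosen after their values were seen.

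CBTi-seq and the 3' tables gave very different levels for some hnRNPs. Over all columns, all 18 hnRNPs at 50 CPM or more in CBTi-seq were lower in the 3' tables, by a median log2 ratio, 3' over CBTi-seq, of -2.80. The median was -1.29 for members and -1.28 for all genes at that level. Genes with no 3' count, 2 of the 63 members, 274 of all 5198 genes and 0 hnRNPs, are left out of these medians. The medians by length below leave out such genes too. Among the Sm ring genes with a 3' count the median was 0.13. Of the 7 at that level, 3 were higher in the 3' tables and 1, Snrpf, had no 3' count. These sets differ in transcript length. Over all genes the median was 0.33 up to 1000 bases, -0.77 to 2000, -1.49 to 4000 and -1.53 above 4000. Of the hnRNPs, 0 were up to 1000 bases, and 2, 11 and 5 fell in the next 3 bins. Their medians there were -1.91, -2.04 and -5.13. The part of length in the levels was not tested. Hnrnpab was at 1.42 CPM in the 3' tables against 499.7 CPM in CBTi-seq, which put CBTi-seq 353-fold higher. Hnrnpu, the large nuclear scaffold protein, was at 5.18 against 521.8 CPM, and Hnrnpa3 at 14.4 against 506.2 CPM. At the other end Snrpd2 was at 559.2 CPM in the 3' tables against 235.2 CPM in CBTi-seq (log2 ratio 1.25), Snrpa1 at 750.7 against 328.7 CPM (1.19) and Snrpn at 123.6 against 28.9 CPM (2.10). With both knock and control columns in each method, the labels of the 3' libraries do not enter these ratios.

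Of the 63 members, 13 had a 3' level at least 10-fold below the CBTi-seq level, or 20.6%, where 14.6% of all genes did. They were Hnrnpa0, Hnrnpa3, Hnrnpab, Hnrnpll, Hnrnpu, Hnrnpul2, Prpf19, Prpf31, Prpf39, Lsm4, Lsm14b, Snrpf and Snrpert. Just outside lay Hnrnpd, 9.56-fold higher in CBTi-seq, and just inside lay Hnrnpll, 10.5-fold higher. Snrpf and Snrpert had no 3' count, as had 5.27% of all genes. Snrpf, the gene of SmF, had 143.7 to 255.0 CPM in CBTi-seq knock cells and 166.5 to 384.9 CPM in control cells, and against 3 counts over both 3' libraries it was at least 1239-fold higher in CBTi-seq. The same bound was 348-fold for Snrpert, and both bounds leave out counting error in the CBTi-seq counts. U2af1l4, a relative of U2af1, had no 3' count either, at 4.75 CPM in CBTi-seq.

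**Figure D4:**
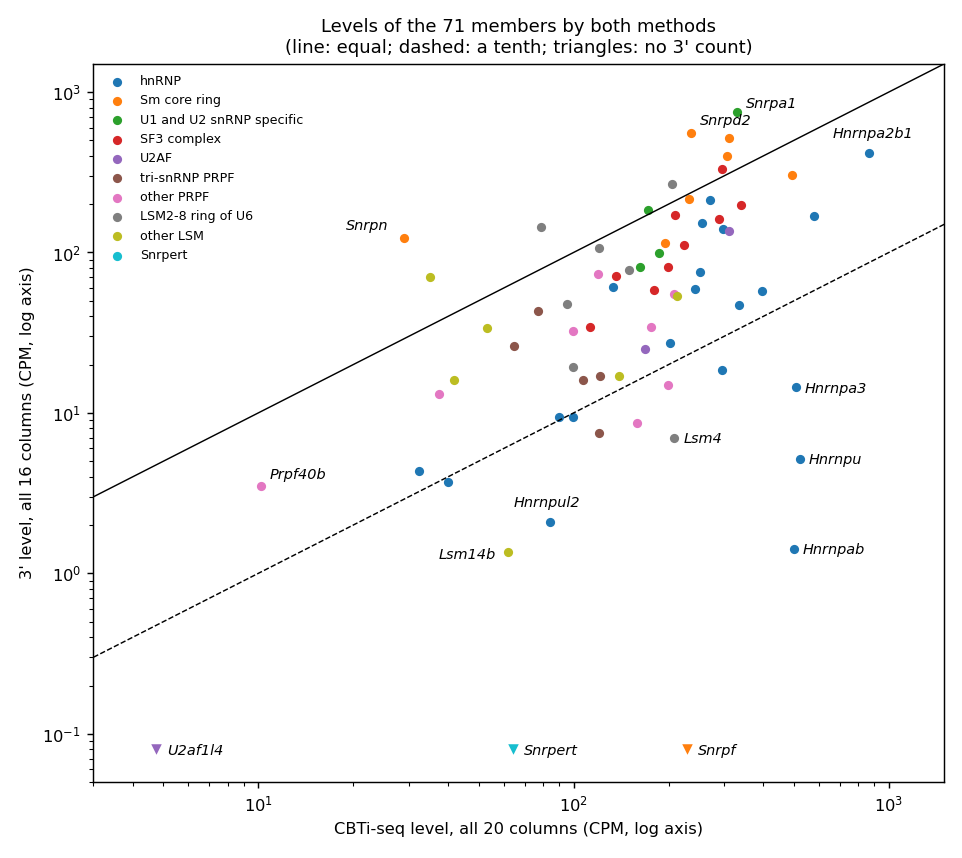
Level of each of the 71 members over all columns of CBTi-seq (horizontal) and of the 3' tables (vertical), in CPM on log axes, coloured by role. The solid line marks equal levels, the dashed line a 10-fold lower 3' level, and triangles at the bottom mark the 3 genes with no 3' count; Hnrnpab, Hnrnpu and Hnrnpa3 lie far below the dashed line.

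Part of these members end where another gene lies or where a copy exists. The last 500 bases of the transcripts of 5 members overlapped another gene, and 4 of the 5 were among the 13. These were Hnrnpab (over Phykpl), Prpf31 (Gm15927), Prpf39 (Fkbp3) and Snrpf (Ccdc38), each on the opposite strand. Of all genes, 32.6% with such an overlap were at least 10-fold lower by the 3' method and 10.99% without. Whether strand was used in counting is not given, so reads from these pairs may not be told apart. A near-identical copy of the transcript end lay elsewhere for 13 of the 63, of which Hnrnpa3, with 26 copies, and Snrpert were at least 10-fold lower by the 3' method. The others were Hnrnpc, Hnrnph1, Snrpa, Snrpc, Snrpd1, Snrpe, Sf3b4, U2af1, Lsm5, Lsm6 and Lsm7. Hnrnph2 had a copy as well, and counts of all these genes are uncertain. With neither copy nor overlap, 7 of 45 members (15.6%) and 9.85% of all genes were at least 10-fold lower by the 3' method, Hnrnpu, Lsm4, Hnrnpa0 and Hnrnpul2 among the 7. The part of overlaps and copies in the levels was not tested beyond these counts.

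Longer transcripts had lower CBTi-seq ratios over all genes, while the members followed this order only in part. For transcripts up to 1000 bases, at a mean of 50 CPM or more, the median log2 ratio of knock over control was 0.06 for 9 members, 5 of them higher, and 0.12 for 521 genes, 72.6% of them higher. Between 1000 and 2000 bases it was 0.21 for 14 members, 13 of them higher, and 0.11 for 1219 genes, 65.1% of them higher. Between 2000 and 4000 bases it was 0.11 for 26 members, 15 of them higher, and -0.02 for 1996 genes, 46.9% of them higher. Above 4000 bases it was -0.09 for 14 members, 5 of them higher, and -0.15 for 1449 genes, 30.2% of them higher. The members' shortest transcripts thus had a lower median than those of the next 2 bins. In the 3' libraries, by their labels, the 4 bins from short to long gave medians of 0.27, 0.33, 0.36 and 0.32 for 5, 13, 14 and 5 members, beside 0.07, 0.25, 0.23 and 0.34 for all genes.

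Other genes of the pathway, from lists that do not overlap the members, were as even in CBTi-seq. Of 43 other spliceosome proteins at 20 CPM or more, 22 were higher in knock cells and 21 lower, with a median log2 ratio of 0.00. Rbm22, which joins the catalytic spliceosome, was at 63.0 against 100.5 CPM (-0.67, -0.92 to -0.43), and the helicase gene Dhx8 at 21.7 against 34.4 CPM (-0.67, -1.09 to -0.25). By the 3' method 22 of 28 stood higher under the label knock, with a median of 0.37. The cyclophilin gene Ppil1 was at 69.4 against 12.0 CPM (2.53, 2.20 to 2.87) and the U5 GTPase gene Eftud2 at 57.1 against 16.4 CPM (1.80, 1.51 to 2.10).

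Of the exon junction complex, 5 of 8 genes were higher in CBTi-seq knock cells, by a median of 0.10, with Magohb at 0.40 (0.14 to 0.66) and Casc3 at -0.30 (-0.62 to 0.02). By the 3' method 4 of 5 stood higher under the label knock, with a median of 0.17, with Upf3b at 0.63 (0.45 to 0.80) and Magoh at -0.63 (-0.92 to -0.35). Genes for the assembly of snRNPs were higher for 9 of 15 in CBTi-seq knock cells, by a median of 0.06. Smn1, the gene of the SMN protein, had a ratio of 0.53 (0.35 to 0.71), and Snupn, which carries snRNPs into the nucleus, of -0.43 (-0.83 to -0.04). By the 3' method 5 of 12 stood higher under the label knock and 7 lower, with a median of -0.22. Snupn was at 15.2 against 40.5 CPM there (-1.42, -1.72 to -1.12), and Gemin5 at 36.3 against 21.2 CPM (0.78, 0.49 to 1.06).

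Other nuclear RNA-binding proteins of the hnRNP kind were higher for 11 of 22 in CBTi-seq knock cells, with a median of 0.02. Ptbp2, a relative of the polypyrimidine tract binding protein, was at 42.2 against 93.5 CPM (-1.15, -1.43 to -0.87), with single control cells from 18.2 to 745.7 CPM. Cirbp, a cold-inducible protein, was at 13.1 against 27.2 CPM (-1.05, -1.58 to -0.54). At the 3' end 12 of 13 stood higher under the label knock, with a median of 0.35, with Rbmx at 42.5 against 15.8 CPM (1.42, 1.11 to 1.74). The exception was Fubp1 at 22.3 against 54.2 CPM (-1.28, -1.54 to -1.03).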

How the data were processed

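RNA of L929 cells was measured in 3 samples. The deposited values are raw counts as whole numbers, not normalized by the authors: 20 CBTi-seq columns by gene symbol, in a table whose name refers to UMIs (molecular identifiers), and 8 columns by Ensembl ID in each 3' table. No gene exceeded 638 counts in a CBTi-seq column, while a gene reached up to 67257 counts in a 3' column. The tools named, per the submitters' processing notes, are STAR 2.7.11b, Picard and FastQC, with GRCh38 and GRCm38 as builds without a stated role. Not given in the sources used here are the counting tool, its filters, its use of strand, and whether reads or UMIs were counted in the 3' tables.

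Of 55402 IDs in the 3' tables, 55141 matched GENCODE vM21 (GRCm38), and rows without a match held 0.033% of counts in the library labelled knock and 0.019% in the one labelled control. Counts were summed over a group's columns and scaled to the total (CPM). Ratios have exact conditional (Clopper-Pearson) 95% intervals. With 1 sample a group there is no test and no p-value; genes were called 2-fold apart by size alone, at a mean of 50 CPM or more. Medians used members at a mean of 20 CPM or more. Copies of transcript ends (blastn 2.17.0) are matches of at least 95% identity over at least 100 bases of the last 500 bases.

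Members, lists and rules were chosen with earlier results of these data known. Every member may be named. Values are given for the 6 largest ratios in each direction per method, members 2-fold apart, members without a 3' count and, in each role, the member with the highest CPM. Of each other list, the 2 largest ratios per method are given. One member that this rule would name is not reported here. Alternatives were the mean of column CPM, scaling by edgeR 4.0.16 (TMM) and by DESeq2 1.42.0 (median of ratios), totals that left out mitochondrial and ribosomal protein genes, thinning to 50000 counts, other level limits, identifier collisions with an assumed pool of 1024 or 4096, and each column left out. Calculations were tested on simulated data and used R 4.3.3 and Python 3.11.15 with scipy 1.17.1, pandas 2.3.3, numpy 2.4.6 and matplotlib 3.10.9.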

Additional observations from a re-analysis of the deposited data

Results flagged for a closer look

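Summed levels were checked for single columns that stand far from the others of their group, over 36 sets of columns, and 2 were found. Chance flags about 1 in 20 such groups. Columns of a sample, called cells here after the protocol text, are not replicates. SF3 subunits summed to 1403 CPM in CBTi-seq knock cell 1, against 1813 to 2245 CPM in the other knock cells. That cell held 198200 counts in all. Other LSM proteins summed to 817.9 CPM in CBTi-seq control cell 1, against 445.3 to 620.5 CPM in the other control cells. That cell was the shallowest, with 41570 counts. The part of depth in either value was not tested.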

How the results depend on the processing

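No paired analysis was possible because the groups hold 1 sample each, the result comes from no test and the column numbers are not stated to pair cells. With each column left out in turn, the median log2 ratio of the members was 0.04 to 0.10 in CBTi-seq and 0.24 to 0.31 in the 3' libraries, with 0 members 2-fold apart in CBTi-seq throughout and 6 to 7 in the 3' libraries. The 3' median was 0.12 under both TMM and median-of-ratios factors, and with no level limit 12 of 66 members (18.2%) were 2-fold apart in the 3' libraries, beside 36.3% of all genes. Relative to all genes, the members' 3' median was 0.10 higher as reported and 0.11 higher under TMM factors. For the 4 main values and the count of members at least 10-fold lower by the 3' method, 112 alternatives stayed close and 3 moved. For single genes, role groups and the separate counts of members at least 2-fold higher or lower, 1160 stayed close and 82 moved. Medians of role groups that changed sign, beside those in the report, were those of other LSM proteins in CBTi-seq with the level limit doubled (0.00, against 0.11) and of the tri-snRNP PRPF proteins in the 3' libraries with the limit halved (0.07) or none (0.25), against -0.15. The members with a 3' level at least 10-fold below their CBTi-seq level numbered 9 to 14 under 7 alternatives chosen after seeing the data. There were 9 of 51 (17.6%) with the level limit doubled, beside 13.3% of all genes. With control columns alone there were 14 of 62 (22.6%), beside 20.1% of all genes, so the members then stood closer to all genes than in the report. A 3' level up to 0.327 CPM (label knock) or 0.424 CPM (label control), the worth of 3 counts, can give no count. Corrections for identifier collisions left the CBTi-seq median of the members at 0.07 and 0.08.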
